A study of Mus musculus with 15 samples.

Results

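The neutrophil granule and calprotectin genes were a set of 10 genes, S100a8, S100a9, Lcn2, Ngp, Camp, Ltf, Retnlg, Elane, Mpo and Cxcr2, chosen by symbol from the 43472 gene symbols in the counts. They were followed through RNA-seq of plasma-derived extracellular vesicles (EVs), small membrane particles that cells release into the blood. The 15 libraries came from 3 EV samples of WT (C57BL/6) mice, 6 of dystrophic (Sgcb null) mice and 6 of hypertrophic mice, with no treatment. Per the study's methods, each sample pooled the plasma EVs of 2 to 3 mice aged 3 to 6 months, and the scarce RNA was amplified before library preparation. The labels give the hypertrophic genotype as MAGIC F1 and the methods as Mstn-null, and the labels give serum where the methods give plasma, so the groups were used as conditions only. Sgcb null mice lack a sarcoglycan and develop muscular dystrophy in the whole animal.

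The title numbers of 6 libraries (replicates 4 to 6 of the dystrophic and 1 to 3 of the hypertrophic condition) do not match those of the counts attached to them, and the mismatch is crossed between these 2 conditions. Conditions follow the labels below, and values with the 6 libraries exchanged are given beside results whose order or direction they turn. WT replicate 1 was the shallowest library, with 27227 reads counted on genes, and dystrophic replicate 6 the deepest, with 32563362. Levels are given as CPM, the reads of a gene divided by those on all genes and multiplied by 1000000. A count of 0 allows up to 3 reads, which is 110 CPM in WT replicate 1 and 0.0921 CPM in dystrophic replicate 6. Intervals and limits cover counting error only, since copies made by amplification are not independent molecules. No source states that the samples of a condition came from separate mice, so p-values measure the spread between these samples, which may be technical. For plasma, the methods list fewer mice per genotype than 6 separate pools of 2 to 3 mice would take. Samples of the dystrophic and of the hypertrophic condition may therefore share mice. In vesicle RNA, fewer vesicles from a cell type and less RNA per vesicle cannot be told apart.

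Neutrophils are short-lived blood phagocytes that make their granule proteins in a fixed order in the bone marrow. Primary granule enzymes such as myeloperoxidase (Mpo) and neutrophil elastase (Elane) are transcribed in promyelocytes. The proteins of secondary granules (Ltf, Camp, Ngp, Lcn2) are transcribed in myelocytes and metamyelocytes, and both programs are largely switched off in the mature cell. S100a8 and S100a9 encode the subunits of calprotectin, a calcium- and zinc-binding complex that fills the neutrophil cytosol, and their transcripts remain abundant in circulating neutrophils, together with those of Retnlg and Cxcr2.

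The calprotectin transcripts were found in the most libraries. S100a9 had reads in 14 of 15 libraries and S100a8 in 11, and every library held reads of at least 1 of them. Retnlg had reads in 4 libraries, Lcn2 in 3, Ngp and Cxcr2 in 2 each and Ltf in 1. Camp, Elane and Mpo were at 0 in all 15 libraries. Among the 13281 genes with a read in any library, the median gene had reads in 3 libraries, 6.98% had reads in 11 or more, and 2.33% in 14 or more.

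**Figure D1:**
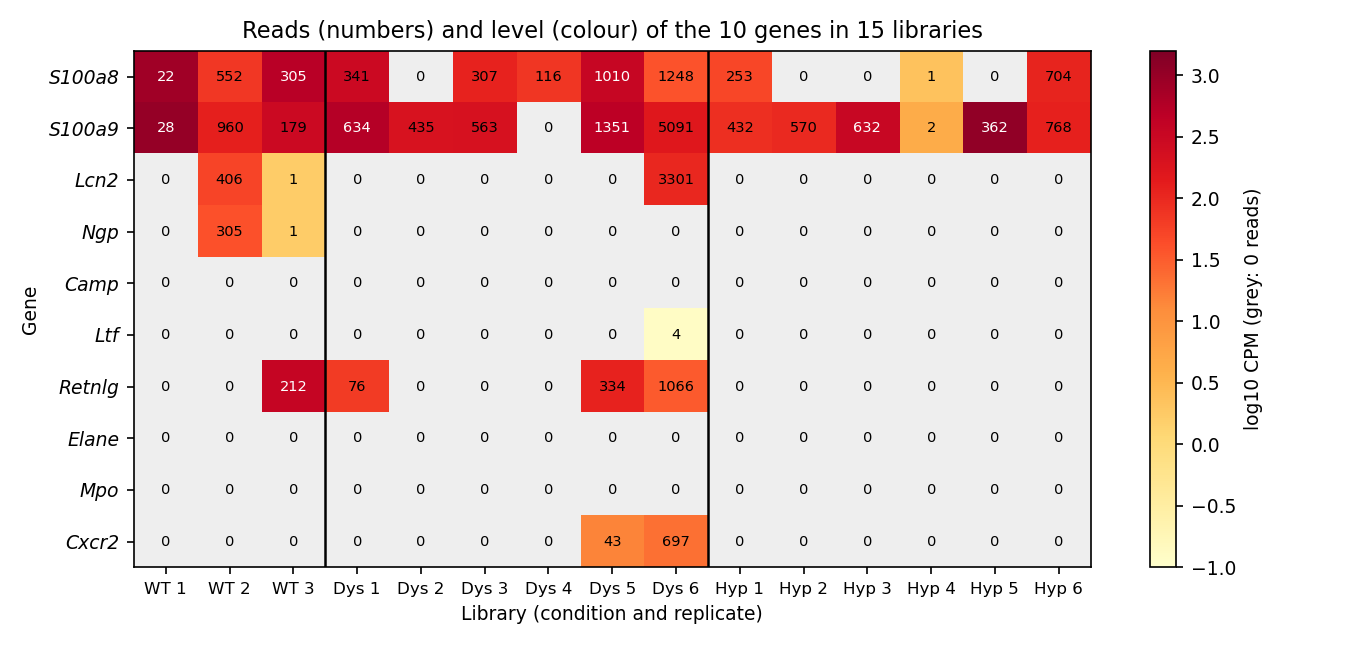
Reads (numbers) and level (colour, log10 CPM, grey for 0 reads) of the 10 genes (vertical axis) in the 15 libraries (horizontal axis, Dys dystrophic and Hyp hypertrophic, numbered by replicate). The S100a8 and S100a9 rows are filled in most columns, and in the 6 hypertrophic columns no other gene has a read.

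The 2 calprotectin genes lie 22596 bases apart on chromosome 3 in the mm10 assembly. S100a8 (ENSMUSG00000056054.9) spans chr3:90668978-90670035 on the plus strand with 694 exonic bases, and S100a9 (ENSMUSG00000056071.12) spans chr3:90692632-90695721 on the minus strand with 522. Their RefSeq promoters, 250 bases before to 50 after the annotated start in GRCm38.p6, are shown because these genes hold most of the set's reads, although no promoter readout was made. Capitals mark the TATA box letters TATAAA and, for C/EBP factors, which drive myeloid genes, the letters TTNNGCAA, both searched on both strands.
S100a8, chr3:90668821-90669120, plus strand: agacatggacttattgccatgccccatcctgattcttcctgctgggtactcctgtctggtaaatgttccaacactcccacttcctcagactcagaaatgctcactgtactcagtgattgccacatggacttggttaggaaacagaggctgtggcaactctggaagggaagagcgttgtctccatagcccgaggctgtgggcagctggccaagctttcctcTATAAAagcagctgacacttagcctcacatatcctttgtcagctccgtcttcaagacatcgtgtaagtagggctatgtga
S100a9, chr3:90695672-90695971, minus strand: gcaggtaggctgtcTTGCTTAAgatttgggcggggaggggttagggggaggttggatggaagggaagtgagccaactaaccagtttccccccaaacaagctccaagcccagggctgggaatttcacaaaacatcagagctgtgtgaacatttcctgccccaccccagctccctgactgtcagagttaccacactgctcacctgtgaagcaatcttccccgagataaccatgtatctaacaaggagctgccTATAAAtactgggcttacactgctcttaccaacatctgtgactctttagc

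TATAAA begins 30 bases before the RefSeq start of S100a8 and directly at that of S100a9, and 13.6% of all 32851 RefSeq promoters hold it. The spans printed above are from GENCODE, whose S100a8 start lies upstream of the RefSeq one. This TATAAA of S100a8 therefore falls inside the printed span. TTNNGCAA occurs once, reversed, in the S100a9 window and not in that of S100a8, and it was also in the windows of Lcn2, Ngp, Ltf and Retnlg, 5 of 10 members in all, against 10.8% of all promoters. RefSeq windows existed for all 10 genes, and the windows of S100a8 and S100a9 alone held the TATA box letters. A further common promoter element, CCAAT, was in the windows of Cxcr2, Ngp, Ltf, Elane and Retnlg, against 37.4% of all promoters. A match of letters is not a binding site.

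S100a8 encodes calgranulin A, the smaller calprotectin subunit. Its level was 808, 71.3 and 507 CPM in WT replicates 1 to 3, from 22, 552 and 305 reads. The first of these rests on a shallow library and has a 95% Wilson interval from 534 to 1223 CPM. In the dystrophic replicates 1 to 6 it was 291, 0, 115, 72.1, 350 and 38.3 CPM. In the hypertrophic replicates it was 49.4, 0, 0, 2.22, 0 and 109 CPM, where the fourth value is a single read. The highest hypertrophic library lay above the lowest WT-derived one, so the conditions overlapped. The mean of WT-derived EVs was 462 ± 370 CPM (SD, n = 3), that of dystrophic-derived EVs 144 ± 143 CPM (SD, n = 6) and that of hypertrophic-derived EVs 26.8 ± 44.8 CPM (SD, n = 6), an order in which neighbours did not differ beyond their spread. With the crossed libraries exchanged, the means were 75.9 CPM dystrophic and 95.2 CPM hypertrophic, so the order of these conditions turned. The WT mean was 289 CPM without replicate 1, and the hypertrophic mean was 10.3 CPM without replicate 6.

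S100a9 encodes calgranulin B, the other calprotectin subunit. Its level was 1028, 124 and 298 CPM in the WT-derived libraries, from 28, 960 and 179 reads. In the dystrophic replicates 1 to 6 it was 542, 202, 210, 0, 468 and 156 CPM. In the hypertrophic replicates it was 84.4, 98.3, 332, 4.43, 1101 and 119 CPM, the fourth from 2 reads. Its ranges overlapped almost completely, and the library with the highest value was a hypertrophic one. The mean of WT-derived EVs was 483 ± 480 CPM (SD, n = 3), that of dystrophic-derived EVs 263 ± 203 CPM (SD, n = 6) and that of hypertrophic-derived EVs 290 ± 412 CPM (SD, n = 6). Without WT replicate 1 the WT mean was 211 CPM, below the dystrophic one, and without hypertrophic replicate 5 the hypertrophic mean was 127 CPM.

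**Figure D2:**
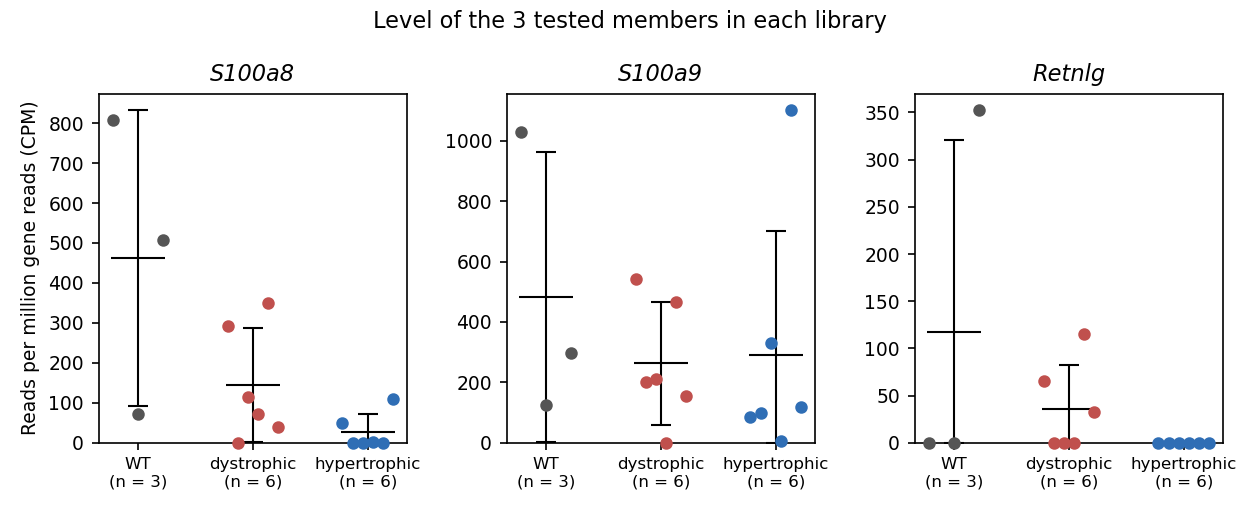
Level of S100a8, S100a9 and Retnlg in CPM (vertical axes, each panel on its own linear scale from 0) by condition. Points are libraries, the wide line is the mean and the bars are 1 SD, stopped at 0. Conditions overlap for S100a8 and S100a9, and Retnlg is at 0 in all 6 hypertrophic libraries.

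The subunits were not always found together. Both had reads in 10 libraries, and 9 libraries held at least 10 reads of each. In these, S100a9 had between 0.587 and 4.08 times the reads of S100a8, with a median of 1.71. Per exonic base, which is the scale for comparing levels between genes, the ratio ran from 0.780 to 5.42 with a median of 2.27, and S100a9 was the higher one in 8 of 9 libraries, all but WT replicate 3.

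Where one subunit was missing, the other was not scarce. Hypertrophic replicates 2, 3 and 5 had 570, 632 and 362 reads of S100a9 and 0 of S100a8, and dystrophic replicate 2 had 435 and 0. Dystrophic replicate 4 showed the opposite, with 116 reads of S100a8 and 0 of S100a9. At the mean CPM of the other libraries of its condition, the S100a9 zero would have held 507 reads and the S100a8 zeros between 10.6 and 374. Over the 15 libraries, log2 CPM (prior count 2) of the 2 genes had a Pearson correlation of 0.06 and a Spearman correlation of 0.27, given as a description of libraries that differ widely in depth.

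The genes whose log2 CPM was most like S100a8, among 2320 genes with reads in 8 or more libraries, were Srp9 (Pearson r = 0.79 over 15 libraries), Uqcr11 (0.74), Rpl13a (0.66), Tmem140 (0.66) and Rpl10a (0.66). For S100a9 they were Rpl39 (0.90), Arf1, Sh3bgrl and Ypel5 (each 0.90) and Dgkz (0.88). Spearman correlations of these genes ran from 0.49 (Tmem140) to 0.77 (Rpl10a) with S100a8. With S100a9 they were lower than the Pearson values, from 0.36 (Ypel5) to 0.675 (Arf1). Only 2 members, S100a8 and S100a9, had reads in 8 or more libraries, so no other member could enter either list. Neither of them was in the list of the other, and S100a9 ranked 1246 among the genes most like S100a8.

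Retnlg (ENSMUSG00000022651.6, chr16:48872621-48874496) encodes a resistin-like secreted protein of myeloid cells. In WT-derived EVs it had 212 reads in replicate 3, or 352 CPM (95% Wilson interval 308 to 403), and 0 in replicates 1 and 2. In dystrophic-derived EVs it was at 64.9 CPM in replicate 1, 116 in replicate 5 and 32.7 in replicate 6, and at 0 in the other 3. All 6 hypertrophic libraries had 0 reads. Reads were thus found in 4 of 9 libraries of the other conditions and none of the hypertrophic ones. Among the 1423 genes with reads in exactly 4 libraries, 17.4% likewise had none in a hypertrophic library.

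At the dystrophic mean of 35.5 CPM, each hypertrophic library would have held between 11.7 and 230 Retnlg reads. Such predictions were not met within the other conditions either, since WT replicate 2 had 0 reads where the other WT-derived libraries predicted 1364, and dystrophic replicates 2, 3 and 4 had 0 where 92.1, 114 and 68.6 were predicted. With the reads of a condition pooled, the hypertrophic-derived level was set to a floor of 3 reads over its 6 libraries. The pooled dystrophic-derived level was at least 229-fold higher than this floor and the pooled WT-derived level at least 169-fold higher. These bounds cover counting error only and not the spread between libraries, and with the exchange none can be given. Of the 1476 dystrophic-derived reads, 1066 were in replicate 6. Without WT replicate 3, the WT-derived level was 0 and no bound can be given. Leaving out 1 dystrophic library at a time gave bounds from 190 to 261. This pattern follows the labels: with the 6 crossed libraries exchanged, Retnlg had reads in 2 of 6 hypertrophic and 1 of 6 dystrophic libraries. In the 9 libraries with matching numbers it was found in 1 of 3 WT, 1 of 3 dystrophic and 0 of 3 hypertrophic libraries.

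The secondary granule genes were seen in few libraries. Lcn2 (lipocalin 2, which withholds iron from bacteria) had 406 reads in WT replicate 2, or 52.5 CPM, a single read in WT replicate 3 and 3301 reads in dystrophic replicate 6, or 101 CPM. The other 12 libraries held none, hypertrophic replicates 1, 2 and 6 included, which are 5120128, 5800739 and 6461652 reads deep. Ngp (neutrophilic granule protein) had 305 reads in WT replicate 2, or 39.4 CPM, and a single read in WT replicate 3. Thus the same WT-derived pair of libraries held Lcn2 and Ngp, each with nearly all WT reads in replicate 2. Ltf (lactotransferrin, an iron-binding protein) had 4 reads in dystrophic replicate 6, or 0.123 CPM (95% Wilson interval 0.0478 to 0.316). Camp, the cathelicidin antimicrobial peptide, had 0 reads, which allows up to 0.0921 CPM in the deepest library.

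The primary granule genes Elane, a serine protease, and Mpo, which makes hypochlorous acid, had 0 reads throughout, with the same limit in dystrophic replicate 6. Mpo overlaps the antisense gene Gm11505. The sources differ on whether the library kit kept strand and do not state the counting mode, so reads in this overlap may have been counted to the partner or to neither gene, and the 0 of Mpo is uncertain.

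Cxcr2, the chemokine receptor that guides neutrophils out of the marrow and to inflamed tissue, had 43 reads in dystrophic replicate 5, or 14.9 CPM, and 697 in dystrophic replicate 6, or 21.4 CPM. It was at 0 in the 3 WT-derived, 4 dystrophic-derived and 6 hypertrophic-derived libraries. Both libraries with Cxcr2 are among the 6 with crossed numbers, as is the dystrophic library with Lcn2 and Ltf. Exchanged, these reads would all count as hypertrophic. The deepest library supplied 94.2% of all Cxcr2 reads, 89.0% of those of Lcn2 and 63.2% of those of Retnlg, against 25.7% for S100a8 and 42.4% for S100a9.

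By library, the number of members with a read was 2, 4 and 5 in WT replicates 1 to 3, and 3, 1, 2, 1, 4 and 6 in the dystrophic replicates 1 to 6. In the hypertrophic replicates it was 2, 1, 1, 2, 1 and 2. No hypertrophic library exceeded 2, and these reads were of S100a8 and S100a9 alone. For Lcn2, Ngp, Cxcr2 and Ltf, found in 3 libraries or fewer, the share of all genes likewise without hypertrophic reads was not computed. The median gene had reads in 3 libraries, so zeros in all libraries of a condition are not particular to these members. On average, WT-derived EVs held 3.67 ± 1.53 members (SD, n = 3), dystrophic-derived EVs 2.83 ± 1.94 (SD, n = 6) and hypertrophic-derived EVs 1.5 ± 0.55 (SD, n = 6). With the crossed libraries exchanged, the dystrophic mean was 1.67 and the hypertrophic mean 2.67, so the order of these 2 conditions turned. Over all genes, the mean number detected was 2875 ± 2031 (SD, n = 3), 5039 ± 3094 (SD, n = 6) and 3144 ± 2071 (SD, n = 6) in the same order of conditions, and with the exchange 3942 dystrophic and 4241 hypertrophic.

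Sampled down to the 27227 reads of the smallest library, the means were 2.68 ± 0.59 (SD, n = 3), 2.22 ± 1.15 (SD, n = 6) and 1.13 ± 0.61 (SD, n = 6). The number of all genes detected at this depth was not computed. With the exchange, the order of the dystrophic and hypertrophic means of the members at this depth turned. Dystrophic replicates 5 and 6, which had the highest sampled-down values of their condition (3.35 and 3.45), are crossed libraries. WT replicate 1, at that depth, held 2 members, and hypertrophic replicates 1, 2 and 6, the deepest of their condition, held 1 or 2 with all reads. Of the 150 pairs of a member and a library, 113 were at 0, 5 had 1 to 4 reads and 32 had 22 or more. The share of pairs with reads that had 10 or more, 86.5%, was close to the 84.3% over all genes.

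**Figure D3:**
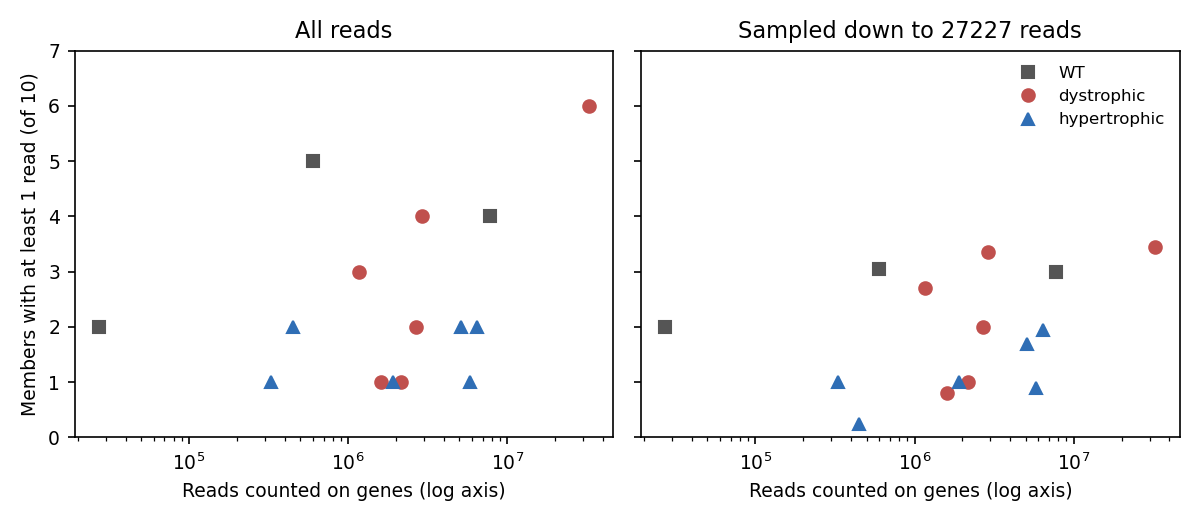
Members with at least 1 read (vertical axis, of 10) against the reads counted on genes (horizontal axis, log scale) in each library, with all reads (left) and after sampling each library down to 27227 reads (right, mean of 20 draws, plotted at the original depth). The libraries labelled hypertrophic (triangles) lie at 2 members or fewer at every depth.

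The summed level of the 10 members was 1836, 287 and 1160 CPM in WT replicates 1 to 3. It had a minimum of 72.1, a median of 337 and a maximum of 947 CPM in dystrophic-derived libraries, and 6.65, 181 and 1101 CPM in hypertrophic-derived ones. S100a8 and S100a9 made up 100% of this sum in 10 libraries and at least 55.6% in every library. With the exchange, the mean sum turned from 465.6 to 331 CPM in dystrophic-derived and from 317 to 451 CPM in hypertrophic-derived EVs. Dystrophic replicate 6, at the low end of that share, was the library with the most members.

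Differential expression was tested on all genes with edgeR's quasi-likelihood test, and 3 members, S100a8, S100a9 and Retnlg, passed its filter on low counts. None of the 3 passed a Benjamini-Hochberg adjusted p of 0.05 in any comparison. Of the 6887 genes tested, 0.0145% passed in dystrophic against WT, 0.029% in hypertrophic against WT and 0.0145% in hypertrophic against dystrophic. At an unadjusted p under 0.05 the members counted 0, 1 and 1 in that order, the 1 being Retnlg, beside 2.02%, 8.02% and 12.0% of all genes. The biological coefficient of variation was 3.04, which is the relative spread between libraries of a condition.

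S100a8 had a log2 fold change of −1.32 (SE 2.19) in dystrophic against WT, −3.87 (SE 2.24) in hypertrophic against WT and −2.55 (SE 1.95) in hypertrophic against dystrophic, with edgeR adjusted p of 0.994, 0.430 and 1.0. With the crossed libraries exchanged, the last of these was 0.65. S100a9 had −0.42 (SE 1.87), −1.01 (SE 1.85) and −0.59 (SE 1.55), with edgeR adjusted p of 1.0, 0.955 and 1.0. Its fold change between hypertrophic and dystrophic was 0.12 without TMM scaling and 0.15 with the exchange, so no direction can be given. None of these fold changes passed the test.

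For Retnlg the value in dystrophic against WT was −1.71 (SE 3.0, edgeR adjusted p = 1.0), and it became 10.66 without WT replicate 3, the WT library that held it. Against the hypertrophic libraries, all at 0, the fitted fold change depends on the prior count and is not given. The edgeR adjusted p was 0.267 against WT and 0.123 against dystrophic. DESeq2, which called 3.75% and 4.84% of genes lower in these comparisons, called Retnlg lower in both (DESeq2 adjusted p = 6.67e-11 and 6.11e-14). Retnlg passed the filter only through WT- and dystrophic-derived libraries. Against hypertrophic libraries at 0 it could only come out lower, so these calls restate the zeros. It called S100a8 and S100a9 in none, and no member in dystrophic against WT, where 0.256% of genes were called lower. Over all alternatives that gave a value, the adjusted p of Retnlg ran from 6.67e-11 to 0.926 against WT and from 6.11e-14 to 1.0 against dystrophic. It failed the filter, and so had no value, where the hypertrophic condition was fitted with only the condition compared. The same held in the 9 libraries with matching numbers.

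**Figure D4:**
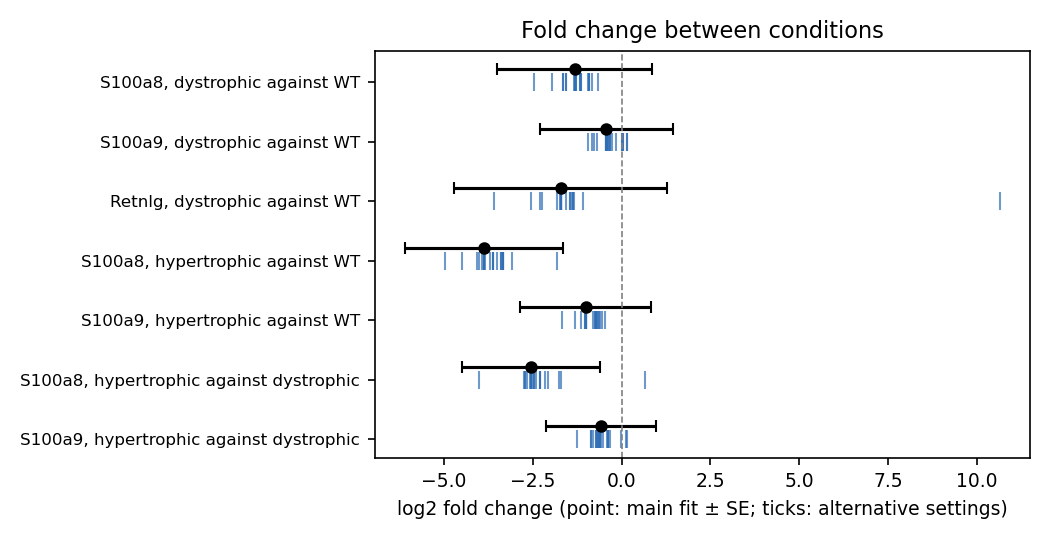
Log2 fold change (horizontal axis) of S100a8, S100a9 and, in dystrophic against WT, Retnlg (vertical axis, gene and comparison). Points and bars are the edgeR fit with its SE, and ticks are the alternative settings. The ticks cross 0 for S100a9 in dystrophic against WT, for both calprotectin genes in hypertrophic against dystrophic, and for Retnlg at 10.66.

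The 3 tested members had a median log2 fold change of −1.32, −3.87 and −2.55 in the 3 comparisons, each time the value of S100a8. Over all genes tested the median was 1.38, 0.66 and −0.52, and without TMM it was 1.57, 1.02 and −0.37. With the exchange, the median of the members in hypertrophic against dystrophic was 0.65 and that of all genes −0.12. The comparisons share libraries, so these values are not independent of each other. Only 3 of 10 members could be tested, and they passed the filter because they were high in some libraries.

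Other genes of neutrophil biology were listed by role, 59 in all, of which 39 had reads in any library and 25 passed the filter. The 4 other primary granule genes (Prtn3, Ctsg, Ms4a3, Prss57) were at 0 in all 15 libraries, as Elane and Mpo were. Of 11 other secondary and tertiary granule genes, 6 had reads. Lyz2 (lysozyme, also made by monocytes and macrophages) had reads in all 15 libraries, at 599, 1002 and 1660 CPM on average in WT-, dystrophic- and hypertrophic-derived EVs. Slpi and Hp had reads in 5 and 4 libraries. Ly6g, the surface protein by which mouse neutrophils are usually sorted, was at 0 in all 15 libraries.

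Of 12 other surface receptor genes, 8 had reads, none in more than 7 libraries. Clec4d, a C-type lectin receptor, had a mean of 42.4 CPM over all libraries and Ccr1, a chemokine receptor, 20.6 CPM. The 5 NADPH oxidase genes, which encode the enzyme of the oxidative burst, all had reads, with Ncf1 and Cyba in 10 libraries each and Ncf4 in 7. Of 15 cytosolic neutrophil protein genes, 11 had reads. S100a6, a calcium-binding relative of the calprotectin subunits, was in 13 libraries, at 413, 462 and 212 CPM on average in the same order, while the exchange of the crossed libraries gave 252 CPM dystrophic and 422 CPM hypertrophic. S100a11 and Anxa1 were in 10 libraries each. Among 4 transcription factor genes, Spi1 and Cebpa were in 7 libraries each and Cebpe in 2.

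The ligands and receptors of the members gave 6 of 8 genes with reads. Ppbp, a CXCR2 ligand that platelets store, was in all 15 libraries at 11087, 6964 and 16102 CPM on average in WT-, dystrophic- and hypertrophic-derived EVs. With the exchange, its means were 12434 CPM dystrophic and 10631 CPM hypertrophic. Cxcl2 and Cxcl5, further CXCR2 ligands, had reads in 5 and 3 libraries. Tlr4, a calprotectin receptor, was in 1 library, while Ager, which also binds it, and Slc22a17, a lipocalin 2 receptor, were at 0.

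**Figure D5:**
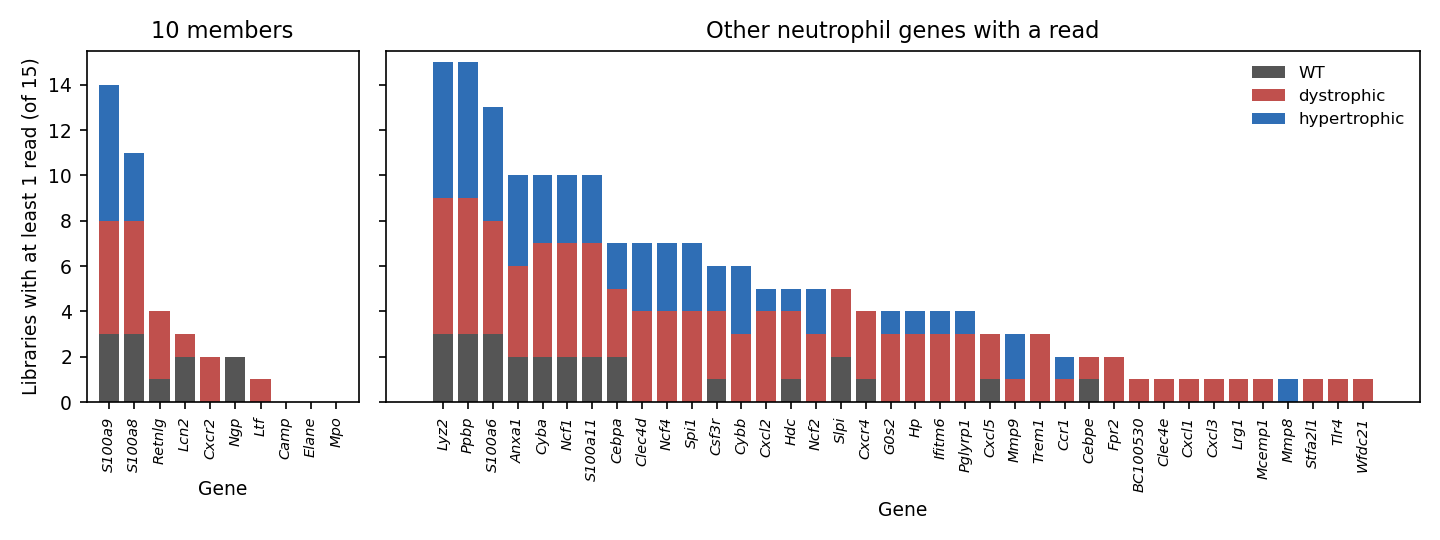
Libraries with at least 1 read (vertical axis, of 15, stacked by condition) for the 10 members (left) and for the other listed neutrophil genes with a read (right, without 1 gene that is not reported here). S100a9 reaches 14 libraries and Lyz2 and Ppbp reach 15, while 3 members stand at 0.

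None of the 25 other neutrophil genes tested passed the adjusted threshold of edgeR's test in a comparison. In dystrophic against WT, hypertrophic against WT and hypertrophic against dystrophic, 0, 2 and 6 had an unadjusted p under 0.05, beside 2.02%, 8.02% and 12.0% of all genes tested. DESeq2 called 6 higher and 0 lower, 6 higher and 2 lower, and 0 higher and 2 lower, while it called 21.1%, 24.5% and 5.17% of all genes in either direction. The median log2 fold change of the 25 was 5.45, 2.10 and −0.64, beside 1.38, 0.66 and −0.52 over all genes tested. With the 11, 14 and 4 genes that were at 0 in a condition set to their bound, the median of the 25 was 4.69, 2.10 and −0.64. That of all genes was then 1.34, 0.62 and −0.52. The median of the 25 was not computed with the exchange.

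Markers of the other blood cells were read beside the members. Of 7 monocyte markers, all had reads somewhere, none in more than 7 libraries, and Csf1r and Ly6c2 in 1 library each. Their summed level ran from 0 to 84.1 CPM in WT-derived, 0 to 149 in dystrophic-derived and 0 to 404 in hypertrophic-derived libraries. The 7 platelet markers summed to 8908 to 16858, 3285 to 15667 and 2920 to 13370 CPM, and the 7 erythroid markers to 22933 to 88148, 47208 to 155950 and 29999 to 88291 CPM. The 5 B cell markers summed to 204 to 955, 0 to 537 and 2.22 to 867 CPM, and the 6 T cell markers to 0 to 66.7, 0 to 454 and 0 to 328 CPM. All 3 EV markers, Cd9, Cd63 and Cd81, had reads in 8 or more libraries. Hbb-bs, an erythroid marker, was the only marker called, lower in hypertrophic than in dystrophic-derived EVs. Its part in the levels of the members was not tested.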

How the data were processed

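The authors deposited raw counts of reads for every gene symbol, 1 table for each of the 15 EV libraries, without normalization or filter. Per the study's methods, single reads were aligned with TopHat to mm10. The submitters' processing notes also name HTSeq and DESeq, with no role, and the annotation is not given in the sources used here. The 5 summary lines of each table, which name no gene, held 57.9% to 99.2% of its numbers and were left out.

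CPM used all reads on genes. Gene positions and exonic lengths came from GENCODE M21, promoters from RefSeq. Conditions were tested with edgeR 4.0.16 (R 4.3.3, limma 3.58.1): TMM, filterByExpr with a minimum count of 10, a quasi-likelihood fit to all 15 libraries without covariates, and Benjamini-Hochberg adjustment over all genes tested at 0.05. SEs came from the F statistic. DESeq2 1.42.0 was an alternative, with 645 missing adjusted p-values left missing. Simulated data were used to test the edgeR step. They had less spread between libraries than the real data, so they do not show how the step performs at the spread seen here. Shares carry 95% Wilson intervals.

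The members and lists were chosen with earlier results of these data known. Named were all 10 members and, of the other neutrophil genes, those with reads in 8 or more libraries, those called, and up to 3 per list with the highest mean CPM. 1 gene that this rule takes is not reported here. Other genes are named as list members at 0 or because they define a cell type, which was chosen after their values were seen.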

Additional observations from a re-analysis of the deposited data

Results flagged for a closer look

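Values were examined in the dystrophic and hypertrophic conditions, 6 libraries each, for a library far from its group by Dixon's criterion, which asks whether the gap to the nearest library exceeds 0.625 of the range. Of 12 groups of values that were not constant, 4 gave such a library. Chance gives about 1 in 20 for values without ties, a rate that does not apply here: a gene with reads in 1 library of 6 meets the criterion at any level, and the summed level repeats the S100a9 value.

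Dystrophic replicate 6, the deepest library, was alone in its condition with reads of Lcn2 (101 CPM, the other 5 at 0) and of Ltf (0.123 CPM, the other 5 at 0). Hypertrophic replicate 5 stood above its condition for S100a9 (1101 CPM, the next library at 332), and the summed level of the members there was the same 1101 CPM, since no other member had a read. It is the shallowest hypertrophic library, with 328710 reads on genes, and the S100a9 value rests on 362 reads.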

How the results depend on the processing

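The counts of genes called, 1 in dystrophic against WT, 2 in hypertrophic against WT and 1 in hypertrophic against dystrophic, were all made by edgeR and depended on the tool. DESeq2 gave 1315, 1528 and 323. With no filter on low counts, and again without mitochondrial and hemoglobin genes, the counts were 0, 0 and 0. In dystrophic against WT, library size without TMM and the 9 libraries with matching numbers each gave 3, and the exchange of the 6 crossed libraries gave 2. In hypertrophic against dystrophic, the exchange and the 9 matching libraries gave 0. Leaving out 1 library at a time gave 1 to 2, 1 to 3 and 0 to 2. Without dystrophic replicates 1, 2, 4 or 5 or hypertrophic replicates 1 or 6 the last count was 0. In none of these settings but DESeq2 was a member called, and the cause was not tested.

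The mean number of members detected in hypertrophic-derived EVs rose from 1.5 to 2.67 with the exchange. The mean numbers detected and the mean summed levels moved by less than 1 SD in the other settings. Without 1 library the mean number ran from 3.0 to 4.5 in WT-derived, 2.2 to 3.2 in dystrophic-derived and 1.4 to 1.6 in hypertrophic-derived EVs.

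S100a8 kept its sign in 23 of 23 settings in dystrophic against WT and in hypertrophic against WT, and in 22 of 23 in hypertrophic against dystrophic, where the exchange gave 0.65. S100a9 in dystrophic against WT was 0.047 with no filter and ran from −0.93 to 0.15 without 1 library, above 0 without WT replicate 1, dystrophic replicate 2 or hypertrophic replicates 1, 2 or 6. In hypertrophic against dystrophic it was 0.12 without TMM and 0.15 with the exchange. Retnlg was 1.41 in hypertrophic against dystrophic with the exchange, and in dystrophic against WT it ran from −2.56 to 10.66 without 1 library. Without WT replicate 3, Retnlg was at 0 in both WT-derived and hypertrophic-derived libraries, so no value was given.

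No paired analysis was possible because the replicate numbers only name the libraries in accession order. The mean levels of S100a8 and S100a9 without 1 library, exchanged or in the 9 matching libraries, the exchanged means of S100a6, Ppbp and all genes detected, and the Retnlg bounds without 1 library were alternatives chosen after seeing the data. The depth of WT replicate 1 (27227 reads) limits what a 0 there can say, and with 3 WT-derived libraries and a biological coefficient of variation of 3.04, standard errors of the tested members were between 1.55 and 3.95 on the log2 scale.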
